A study of Arabidopsis thaliana with 32 samples.

Results

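The genes described here encode the small subunit of Rubisco, RBCS1A (AT1G67090), RBCS1B (AT5G38430), RBCS2B (AT5G38420) and RBCS3B (AT5G38410), and Rubisco activase, RCA (AT2G39730). They were taken by their locus names and are 5 of the 27655 genes in the deposited tables. Rubisco fixes carbon dioxide in the chloroplast stroma and is built from large subunits, encoded by the plastid gene rbcL, and small subunits, encoded by the RBCS genes of the nucleus. Its active site binds a magnesium ion, and Rubisco activase is an ATP-driven chaperone that pulls inhibitory sugar phosphates out of that site. RBCS and RCA transcripts are known as abundant, light-regulated messages of leaf mesophyll cells, while root plastids carry out little or no carbon fixation.

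All plants were Arabidopsis thaliana p35S:HF-RPL18, a line in which the 35S promoter, active in most but not all cells, drives a tagged ribosomal protein. TRAP RNA is the RNA pulled down with the tagged ribosomes, and total RNA is the unselected RNA of a tissue. Plants grew in hydroponic culture for 6 weeks with 10 h of light and 14 h of dark, after which they were kept for 1 day in full medium, called CK, or with sodium sulfate in place of magnesium sulfate, called MgD. Shoot and root, total and TRAP RNA, and CK and MgD give 8 groups of 3 libraries, 24 in all, and every group carried the transgene. The groups are Shoot Total CK, Shoot Total MgD, Shoot TRAP CK, Shoot TRAP MgD, Root Total CK, Root Total MgD, Root TRAP CK and Root TRAP MgD.

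RBCS1A lies alone at chr1:25048158-25049667 (TAIR10.1, minus strand) and RCA at chr2:16570746-16573692 (minus strand). The other small-subunit genes sit in a row on the minus strand of chromosome 5, RBCS3B at chr5:15376988-15378642, RBCS2B at chr5:15380907-15382071 and RBCS1B at chr5:15383167-15385320. Gaps of 2264 bp and 1095 bp separate them, with 0 other genes of the tables in between. Their coding sequences are 96.7% to 97.3% identical to each other and 89.9% to 90.1% identical to that of RBCS1A. The following 90 bases, coding bases 16 to 105 from the RefSeq transcripts of TAIR10.1, encode part of the transit peptide that directs the protein into the chloroplast. They are shown because the reads of these genes can be told apart only where the sequences differ. The stretch was picked as the one of this length, without gaps, with the most columns that differ, so it is not typical of the coding sequence. Capitals mark the 23 columns at which the 4 genes are not all alike.
RBCS1A: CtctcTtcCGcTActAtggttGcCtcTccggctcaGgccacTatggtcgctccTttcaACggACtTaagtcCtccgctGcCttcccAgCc
RBCS1B: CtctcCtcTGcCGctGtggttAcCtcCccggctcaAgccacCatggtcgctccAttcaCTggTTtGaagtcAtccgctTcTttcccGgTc
RBCS2B: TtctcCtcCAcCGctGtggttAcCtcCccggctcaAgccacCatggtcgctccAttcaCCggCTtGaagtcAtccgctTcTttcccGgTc
RBCS3B: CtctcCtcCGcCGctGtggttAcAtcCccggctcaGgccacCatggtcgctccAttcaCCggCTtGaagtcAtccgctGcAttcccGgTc

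Of all stretches of 50 bases in its transcripts, RBCS1A shared 1.42% with another gene, RBCS1B 13.9%, RBCS2B 21.4%, RBCS3B 14.6% and RCA 0%. At 100 bases the shares were 0%, 7.44%, 0%, 8.93% and 0%. The read length and the handling of reads that fit several genes are not given in the sources used here, so the split between RBCS1B, RBCS2B and RBCS3B is less certain than the levels of RBCS1A and RCA. Their sum does not depend on that split, provided that shared reads were counted.

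The DNA before the start codon of each member was read as well. The G-box, CACGTG, and the I-box, GATAAG, are elements known from light-regulated plant promoters, RBCS promoters among them. Both strands of the 300 bases before each start codon were searched. RBCS2B and RBCS3B held a G-box and 3 I-boxes, 1 of them on the opposite strand, and RBCS1A held a G-box and 2 I-boxes. RBCS1B held no G-box and 2 overlapping I-boxes, and RCA held a G-box and no I-box. Among 27443 genes, 6.13% held a G-box in such a window, 15.4% an I-box, 1.05% both and 0.149% a G-box with at least 2 I-boxes. A match describes these letters only. The 30 bases around the G-box, or around the first I-box of RBCS1B, are given with the motif in capitals, from RefSeq TAIR10.1 and on the gene's strand. They lie at chr1:25049491-25049520 (RBCS1A), chr5:15385308-15385337 (RBCS1B), chr5:15382177-15382206 (RBCS2B), chr5:15378506-15378535 (RBCS3B) and chr2:16573579-16573608 (RCA), all on the minus strand. The RBCS2B site lies upstream of the annotated gene, the RBCS1B site straddles the annotated start, and those of RBCS1A, RBCS3B and RCA fall within the longest annotated 5′ transcribed region.
RBCS1A: ggaattatcttcCACGTGgcattattccag
RBCS1B: tcacaaaagaaaGATAAGataagggtgtca
RBCS2B: ggagttttctgcCACGTGatcttatcctag
RBCS3B: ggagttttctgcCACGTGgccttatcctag
RCA: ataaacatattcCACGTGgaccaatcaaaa

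The 250 bases before the annotated start of RBCS2B, the gene with the lowest ratio of TRAP to total RNA in root, follow (chr5:15382072-15382321, minus strand, RefSeq TAIR10.1). Capitals mark its G-box and its I-boxes, the middle one, CTTATC, being read on the opposite strand and lying just after the G-box.
RBCS2B: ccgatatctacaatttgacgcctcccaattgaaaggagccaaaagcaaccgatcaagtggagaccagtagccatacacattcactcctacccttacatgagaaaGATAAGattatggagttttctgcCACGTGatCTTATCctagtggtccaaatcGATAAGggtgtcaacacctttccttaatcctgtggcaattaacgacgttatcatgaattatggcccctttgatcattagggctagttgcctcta

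Library totals ranged from 6147531 to 41472378 counts. Depending on the library, 81.5% to 92.6% of low counts were even numbers. The counts may therefore not be independent reads, and low counts may rest on fewer reads than they show. The reason was not tested. The replicates are labelled as independent, but whether each came from other plants is not stated. The p-values therefore reflect library-to-library spread, possibly technical spread only. Every shoot TRAP library has the lane label L002 and all others L001, so RNA type and lane label cannot be told apart in shoot. For Root Total MgD replicate 3 the count table holds 6147531 reads and the TPM table rests on 11727584, while both tables hold the same reads in the other 23 libraries. Root TRAP CK replicate 1 stood above its group in RBCS1A, RBCS1B, RBCS2B and RBCS3B, and the tests that it moves most are also given without it. The tissue labels were checked with 10 root markers, among them endodermal CASP genes and root hair genes. Their summed level was 375 to 868 TPM in Root Total CK, 146 to 179 TPM in Root TRAP CK and 1.5 to 1.59 TPM in Shoot Total CK. In Shoot TRAP CK, 9 of the 10 were at 0 in all 3 libraries.

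In shoot, RBCS1A was the most abundant of the 22095 genes detected in Shoot Total CK, and all 5 members were among the 84 most abundant. TPM, the deposited transcript abundance, is corrected for gene length and scaled to the same total in each library, so levels of different genes can be set beside each other. RBCS1A stood at 32382, 30076 and 30037 TPM in Shoot Total CK, and at 17176, 18676 and 18417 TPM in Shoot TRAP CK. The total and TRAP libraries did not overlap, and the total libraries were higher. RCA stood at 9284, 8792 and 9295 TPM in Shoot Total CK and at 12794, 12621 and 12035 TPM in Shoot TRAP CK. Here too the groups did not overlap, but the TRAP libraries were the higher ones, the reverse of RBCS1A.

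RBCS3B, the next small-subunit gene by level, stood at 8044, 8080 and 8025 TPM in Shoot Total CK and 4420, 5011 and 5360 TPM in Shoot TRAP CK. RBCS2B stood at 4226, 4735 and 5002 TPM and at 1816, 1884 and 2163 TPM. RBCS1B was the lowest, at 1319, 1336 and 1347 TPM in total and 598, 641 and 547 TPM in TRAP RNA. For each of these 3 genes the TRAP libraries all lay below the total libraries, as they did for RBCS1A. Over all genes tested, 32.7% lay below and 20.4% above in this way on unscaled CPM. The length behind the TPM of RBCS1B, 1894 bp, includes a long 3′ extension of 1 annotated transcript, whereas the other transcript is 840 bp long, so its TPM is lower than the short transcript alone would give. The order RBCS1A, RBCS3B, RBCS2B, RBCS1B held in the mean of every group. In root TRAP RNA the last 2 were close, at 1.57 and 1.15 TPM under CK and 0.449 and 0.397 TPM under MgD. Together the RBCS genes took 4.42% to 4.6% of all TPM in Shoot Total CK and 2.4% to 2.65% in Shoot TRAP CK, and RCA took 0.879% to 0.93% and 1.2% to 1.28%.

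**Figure D1:**
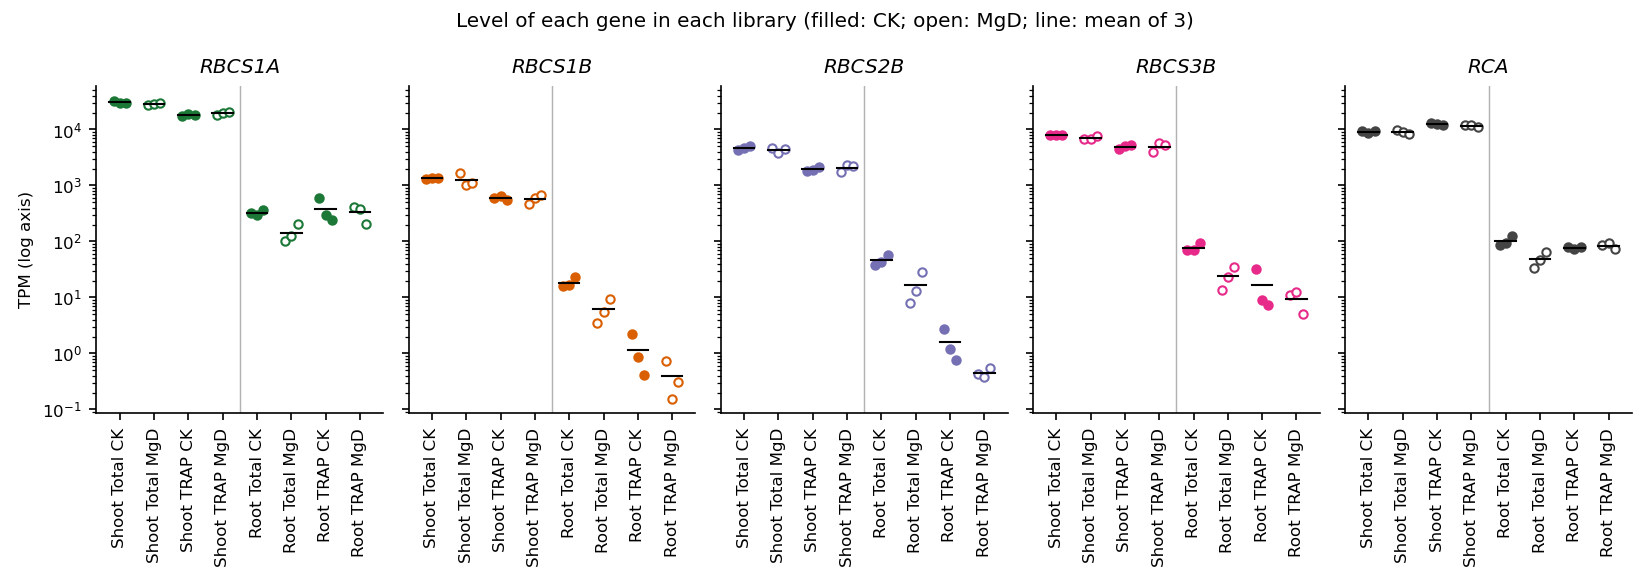
TPM of each gene in each of the 24 libraries, on a log axis, with filled points for CK, open points for MgD and a line at the mean of each group of 3. Shoot groups stand on the left of the grey line and root groups on the right: under CK the root means of RBCS1A are 327 TPM in total and 384 TPM in TRAP RNA, while those of RBCS2B are 46.1 and 1.57 TPM.

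In root, all 5 genes were detected in all 12 libraries at far lower levels. RBCS1A stood at 321, 293 and 367 TPM in Root Total CK and at 607, 301 and 244 TPM in Root TRAP CK, and these groups overlapped. RCA stood at 86.9, 92.6 and 123 TPM in total and 80.5, 72.4 and 80.4 TPM in TRAP RNA, with the TRAP libraries just below the total ones. RBCS3B stood at 70.3, 71.4 and 91.9 TPM in total and 32.8, 9.13 and 7.21 TPM in TRAP RNA. The TRAP libraries lay below the total ones, with replicate 1 well above the other TRAP replicates.

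RBCS2B stood at 37.8, 43.2 and 57.4 TPM in Root Total CK and at 2.73, 1.2 and 0.772 TPM in Root TRAP CK, and RBCS1B at 15.8, 16.8 and 22.7 TPM and at 2.2, 0.849 and 0.416 TPM. Both genes were separated between RNA types by a wide gap, and 48.2% of all genes tested lay below in root TRAP RNA without overlap on unscaled CPM. The root TRAP levels rest on few reads, 11 to 35 counts per library for RBCS2B and 12 to 57 for RBCS1B under CK, against 4715 to 10544 counts for RBCS1A. In bulk tissue, fewer cells of a type and less RNA per cell cannot be told apart.

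Against the shoot of the same RNA type and medium, the members were at one level in root total RNA and at very different levels in root TRAP RNA. In Root Total CK, RBCS1A stood at 1.06% of the shoot mean, RBCS1B at 1.38%, RBCS2B at 0.991%, RBCS3B at 0.967% and RCA at 1.1%. In Root TRAP CK, RBCS1A stood at 2.12% and RCA at 0.623%, but RBCS3B at 0.332% (0.146% to 0.664% over the libraries, the highest being replicate 1), RBCS1B at 0.194% and RBCS2B at 0.0802%. The spread among the members in root is thus a feature of the TRAP libraries. Under MgD the total RNA values were 0.333% to 0.531%, and the TRAP values ran from 1.71% for RBCS1A to 0.0216% for RBCS2B.

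Other leaf genes were followed beside the members. The 39 nuclear photosystem and light-harvesting genes summed to 1.46% of the shoot level in Root Total CK (lowest 1.34%, highest 1.57%) and 0.815% in Root Total MgD. In root TRAP RNA they summed to 3.2% under CK (2.36% to 4.79%) and 2.97% under MgD, and 0 of the 39 was at 0 in all libraries of a root group. The 2 leaf carbonic anhydrases, CA1 and CA2, which hydrate carbon dioxide, summed to 1.03% in Root Total CK, 0.427% in Root Total MgD, 0.0409% in Root TRAP CK and 0.00348% in Root TRAP MgD. By group means, RBCS1A in root had the course of the photosystem sum, higher in TRAP than in total RNA, and RBCS2B that of the carbonic anhydrases. Under CK the RBCS1A difference rested on TRAP replicate 1, with 607, 301 and 244 TPM in TRAP against 321, 293 and 367 TPM in total RNA. The part that leaf RNA in the root samples has in these levels was not tested.

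**Figure D2:**
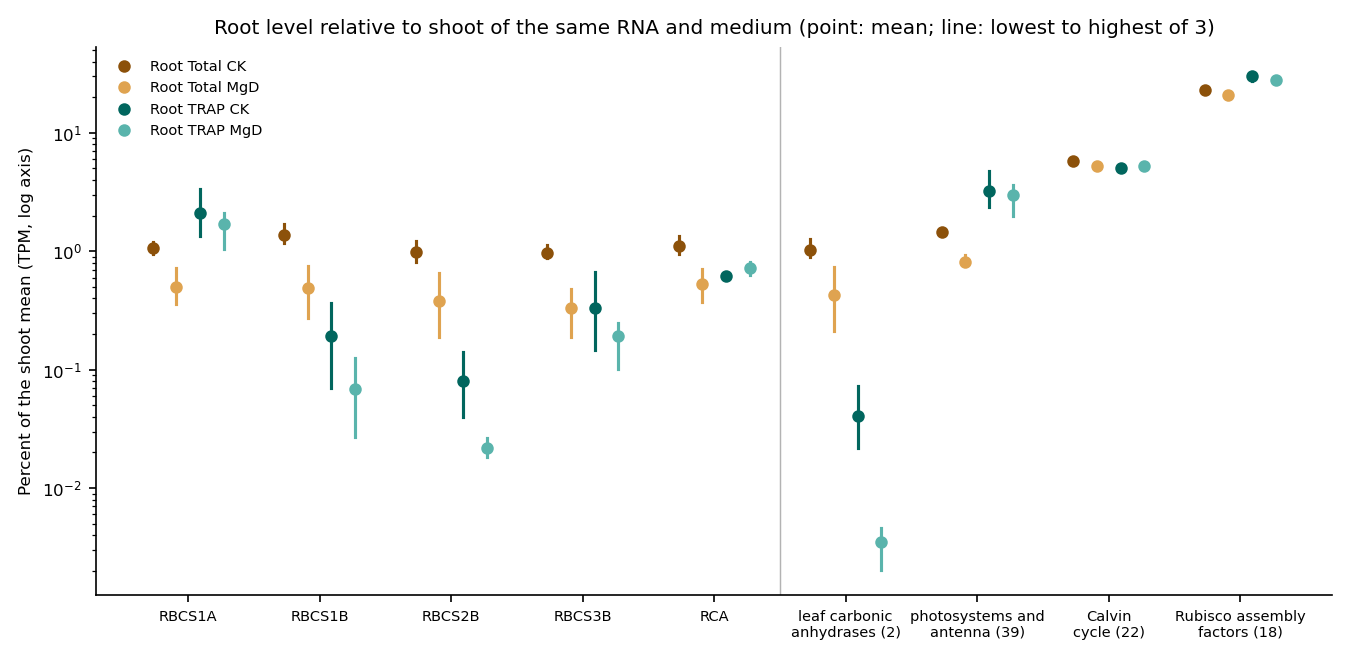
Root TPM as a percent of the shoot mean of the same RNA type and medium, on a log axis, with a point at the mean of 3 libraries and a line from the lowest to the highest; numbers in brackets are genes summed in a list. In Root Total CK the 5 members lie between 0.967% and 1.38%, and in Root TRAP CK between 0.0802% and 2.12%.

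Within the RBCS family, root TRAP RNA was almost all RBCS1A. RBCS1A made up 94.2%, 96.4% and 96.7% of the summed RBCS TPM in Root TRAP CK and 97.1%, 96.8% and 97.2% in Root TRAP MgD. In Root Total CK it made up 72.1%, 69% and 68.1%, close to the 70.4%, 68% and 67.6% of Shoot Total CK. Every root TRAP library lay above every other library. Over the 6 root TRAP libraries of both media the share was 96.4% ± 1.13 (SD, n = 6), against 73.1% ± 4.54 in root total RNA and 71.4% ± 1.67 in shoot TRAP RNA (n = 6 each).

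The differences of 23.3 and 25 percentage points each had p = 0.00216 in a two-sided exact permutation test (adjusted p = 0.00346 over 16 tests), the smallest p that 6 against 6 libraries can give. RBCS1B fell to 0.19% ± 0.105 of the family in root TRAP RNA, RBCS2B to 0.262% ± 0.139 and RBCS3B to 3.17% ± 0.967 (SD, n = 6). In root total RNA the shares were 3.54% ± 0.527, 8.93% ± 1.69 and 14.4% ± 2.65 (SD, n = 6), and all 3 falls had the same adjusted p of 0.00346 in the exact permutation test. Between the tissues in total RNA, RBCS3B alone passed, with 14.4% ± 2.65 in root and 17.6% ± 0.627 in shoot (adjusted p = 0.0157, exact permutation test, n = 6 and 6). For RBCS1A, at 73.1% and 69%, the adjusted p was 0.0639 in the exact permutation test, and 0.0346 or 0.0289 without Root Total CK replicate 2 or 3. For RBCS1B, at 3.54% and 3.02%, it was 0.128, and 0.0231 without Shoot Total MgD replicate 1 (exact permutation test).

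In shoot the composition differed much less between the RNA types. RBCS2B made up 10.4% ± 0.941 of the family in total and 7.64% ± 0.45 in TRAP RNA, and RBCS1B 3.02% ± 0.545 and 2.24% ± 0.229 (SD, n = 6). Both were lower in TRAP RNA without overlap (adjusted p = 0.00346, exact permutation test). RBCS1A was 69% ± 1.54 in total and 71.4% ± 1.67 in TRAP RNA (adjusted p = 0.0404, exact permutation test, n = 6 and 6). That call was lost, with adjusted p between 0.0635 and 0.0808 in the exact permutation test, without Shoot Total CK replicate 2 or 3, Shoot Total MgD replicate 1 or 3, Shoot TRAP CK replicate 1 or 2, or Shoot TRAP MgD replicate 1 or 3. RBCS3B was 17.6% in total and 18.7% in TRAP RNA (adjusted p = 0.0816, exact permutation test), and without Shoot TRAP MgD replicate 1 the adjusted p was 0.0126. With CPM in place of TPM the RBCS1A call was lost (adjusted p = 0.0722, exact permutation test).

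**Figure D3:**
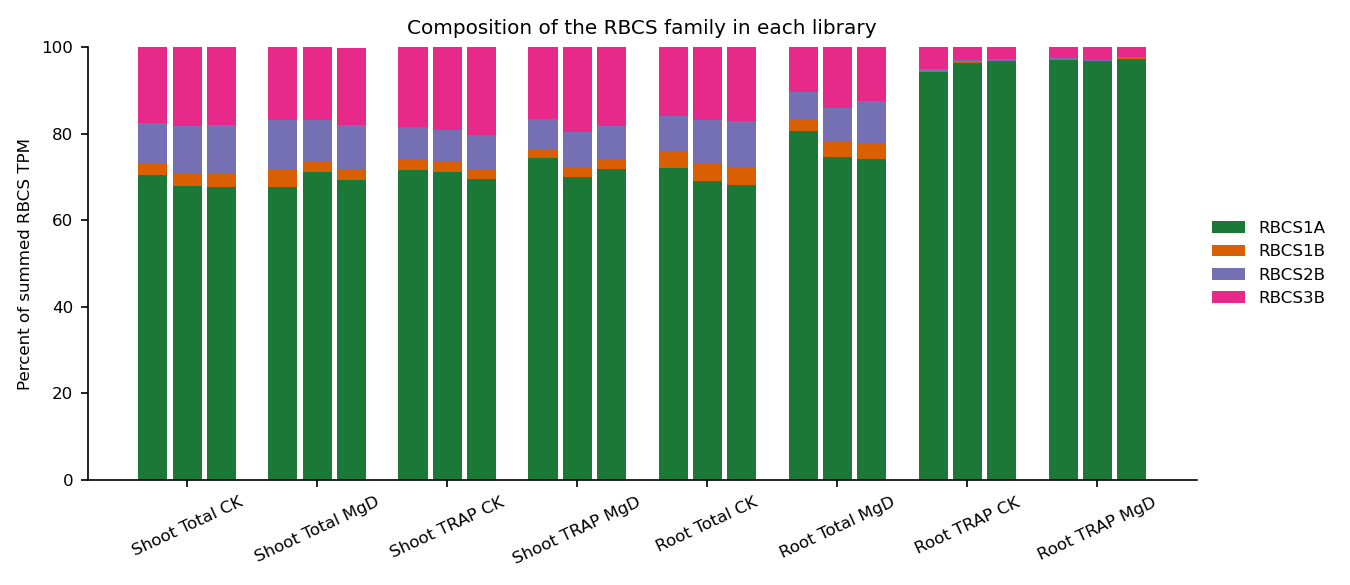
Share of each RBCS gene in the summed RBCS TPM, in percent, with 1 bar per library and 3 libraries per group. RBCS1A fills 94.2% to 97.2% of each root TRAP bar and 67.6% to 80.7% of every other bar.

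TRAP against total RNA asks which transcripts the tagged ribosomes held relative to the tissue. In root under CK, edgeR's quasi-likelihood test with Benjamini-Hochberg adjustment called 3 of the 5 members lower and 0 higher, where 25.5% of all genes tested were called lower and 22.6% higher, 48.2% in all. RBCS2B fell by 4.37 ± 0.67 on the log2 scale (SE, n = 3 and 3, adjusted p = 0.000347, edgeR), a 20.7-fold difference. RBCS1B fell by 3.48 ± 0.66 (adjusted p = 0.00129) and RBCS3B by 1.71 ± 0.63 (adjusted p = 0.0408, both edgeR). RBCS1A had a log2 fold change of 0.75 ± 0.42 (adjusted p = 0.157) and RCA of 0.13 ± 0.25 (adjusted p = 0.696), so neither passed the edgeR test.

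The fall of RBCS3B depended on single libraries. Without Root TRAP CK replicate 1 its log2 fold change was -2.80 (adjusted p = 0.00395, edgeR), and without any of the other 5 libraries it lay between -1.34 and -1.80 with adjusted p from 0.0618 to 0.126 (edgeR). Leaving out Root TRAP CK replicate 1 also gave -5.09 for RBCS2B, -4.41 for RBCS1B and 0.18 for RBCS1A, with the calls of the first 2 kept (adjusted p = 0.000762 and 0.000748, edgeR). Without low-count filtering the adjusted p of RBCS3B was 0.0667 (edgeR). On the TPM scale the median of all genes shifted to -0.46, and RCA turned to -0.35 ± 0.21 there, above that median (adjusted p = 0.167, limma). Summed over RBCS1B, RBCS2B and RBCS3B, the counts fell by 2.28 ± 0.65 (adjusted p = 0.0133, edgeR). The sum over all 4 genes, in which RBCS1A dominates, had 0.29 ± 0.45 (adjusted p = 0.612, edgeR).

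In root under MgD, RBCS1A was at 103, 123 and 206 TPM in total and 409, 385 and 202 TPM in TRAP RNA. It rose by 1.57 ± 0.43 (adjusted p = 0.00894, edgeR), although its lowest TRAP library lay just below its highest total library. RCA rose by 1.17 ± 0.26 (adjusted p = 0.00235, edgeR), from 33.8, 45.9 and 63.6 TPM to 86.8, 94.1 and 72.7 TPM. RBCS2B fell by 5.14 ± 0.77 (adjusted p = 0.000222) and RBCS1B by 3.72 ± 0.74 (adjusted p = 0.00136, both edgeR). With 6, 6 and 7 counts of RBCS2B and 21, 5 and 8 of RBCS1B in these TRAP libraries, the sizes of the falls are imprecise. RBCS3B had -1.17 ± 0.63 (adjusted p = 0.142, edgeR). Without Root Total MgD replicate 3, the library whose tables differ, RBCS2B had -4.02 (adjusted p = 0.000105), RBCS1B -2.98 (adjusted p = 0.00419) and RBCS3B -0.43 (adjusted p = 0.589, edgeR). Without Root TRAP MgD replicate 1, RBCS1B had -4.53 (adjusted p = 0.00196, edgeR). Thus 2 members were higher and 2 lower, where 24.5% and 28% of all genes tested were, 52.5% in all.

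In shoot, all 5 members were called under CK, with every RBCS gene lower in TRAP RNA and RCA higher, where 23.6% of genes were called lower and 21.3% higher, 44.9% in all. RBCS2B fell by 1.36 ± 0.13 (adjusted p = 3.98e-07), RBCS1B by 1.27 ± 0.17 (1.8e-05), RBCS1A by 0.88 ± 0.11 (4.49e-06) and RBCS3B by 0.82 ± 0.13 (7.85e-05), all adjusted p from edgeR with n = 3 and 3. RCA rose by 0.35 ± 0.10 (adjusted p = 0.00801, edgeR), a 1.27-fold difference. Under MgD the same directions were called, where 23.7% of genes were lower and 22.1% higher, 45.8% in all, with falls between 0.56 ± 0.13 for RBCS3B and 1.15 ± 0.16 for RBCS1B and a rise of 0.33 ± 0.10 for RCA (adjusted p = 0.0114, edgeR). The RCA call under MgD was lost without Shoot Total MgD replicate 3 (adjusted p = 0.0534) or Shoot TRAP MgD replicate 2 (adjusted p = 0.057, both edgeR). In a model of all 24 libraries, which shares one spread with the more variable root groups, only RBCS1B and RBCS2B stayed past the threshold in either medium.

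**Figure D4:**
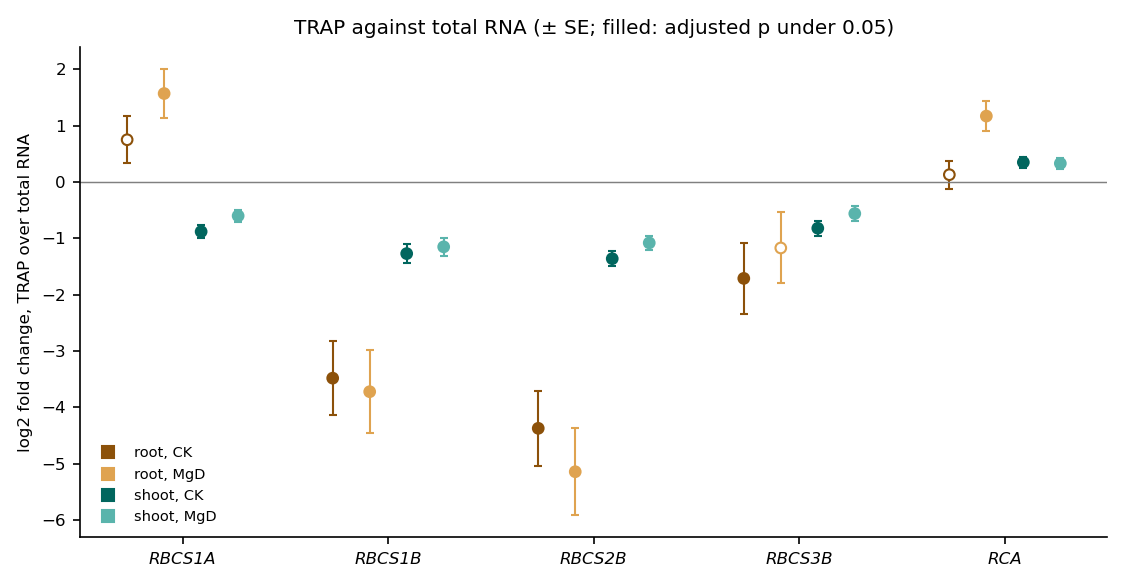
Log2 fold change of TRAP over total RNA for each gene, in root and shoot and under CK and MgD, with bars for the SE and filled points for adjusted p under 0.05 (edgeR, 3 against 3 libraries). In shoot the RBCS values lie between -1.36 and -0.56, and in root they run from -5.14 for RBCS2B to 1.57 for RBCS1A.

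The difference between the tissues was tested itself, as TRAP over total RNA in root minus the same in shoot under CK, in a model of all 24 libraries. RBCS1A was higher by 1.61 ± 0.47 (adjusted p = 0.0131), RBCS1B lower by a log2 value of -2.25 ± 0.63 (adjusted p = 0.0117) and RBCS2B by -3.04 ± 0.65 (adjusted p = 0.00157, edgeR, n = 3 in each of 4 groups). RBCS3B had -0.92 ± 0.67 (adjusted p = 0.328) and RCA -0.24 ± 0.31 (adjusted p = 0.614, edgeR). The calls, 1 higher and 2 lower, stand against 16.2% and 12.7% of all genes tested, 28.9% in all. Without Root TRAP CK replicate 1, RBCS1A had 1.04 and lost its call (adjusted p = 0.0607), while RBCS3B had -2.01 and gained one (adjusted p = 0.00873, edgeR). RBCS1B and RBCS2B then had -3.17 and -3.75. On the TPM scale, where the median of all genes moved to -0.47, RBCS1A had 0.89 (adjusted p = 0.0692, limma), and RBCS3B and RCA were called lower, at -1.76 and -0.81.

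Root against shoot, all 5 members were called lower in both RNA types under CK, where 31.1% of genes were lower and 33.6% higher in total RNA, 64.8% in all, and 32.9% and 35.9% in TRAP RNA, 68.8% in all. In total RNA the members differed little among themselves, from -7.01 ± 0.53 for RBCS1B to -7.53 ± 0.62 for RBCS3B on the log2 scale. In TRAP RNA they spread from -5.78 ± 0.40 for RBCS1A through -7.58 ± 0.29 for RCA and -8.45 ± 0.65 for RBCS3B to -9.26 ± 0.60 for RBCS1B and -10.53 ± 0.62 for RBCS2B. Without Root TRAP CK replicate 1 the TRAP values were -6.35 for RBCS1A, -7.65 for RCA, -9.53 for RBCS3B, -10.18 for RBCS1B and -11.25 for RBCS2B. The highest adjusted p (edgeR) among these results was 9.65e-10, for RBCS3B in total RNA.

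RCA shifted against the RBCS family in shoot. The ratio of RCA to the summed RBCS TPM was 0.203 in Shoot Total CK and 0.489 in Shoot TRAP CK, and 0.217 and 0.429 under MgD (geometric means of 3). Its log2 was -2.25 ± 0.11 in the 6 shoot total libraries and -1.13 ± 0.17 in the 6 shoot TRAP libraries (SD), without overlap (adjusted p = 0.00433 over 4 tests, exact permutation test, two-sided). In root the log2 ratio was -2.10 ± 0.19 in total and -2.11 ± 0.53 in TRAP RNA (adjusted p = 0.978, exact permutation test, n = 6 and 6). The spread was widest in Root TRAP CK, at -2.25 ± 0.69 (SD, n = 3), and in Root TRAP MgD, at -1.96 ± 0.40. In total RNA the ratio of root against shoot had an adjusted p of 0.159 in the exact permutation test, and 0.0462 without Root Total CK replicate 1. Between the tissues, the TRAP ratios did not overlap, with root the lower (adjusted p = 0.00433, exact permutation test, n = 6 and 6).

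MgD against CK asks how 1 day without magnesium changed the messages. In root total RNA all 5 members had lower TPM in every MgD library than in any CK library. The share of all genes with such a gap on TPM was not computed, so this count has no background beside it. RBCS1A went from 321, 293 and 367 TPM to 103, 123 and 206 TPM, a log2 fold change of -1.07 ± 0.42, and RCA from 86.9, 92.6 and 123 TPM to 33.8, 45.9 and 63.6 TPM, -0.94 ± 0.26 (SE). RBCS2B went from 37.8, 43.2 and 57.4 TPM to 8.02, 13 and 28 TPM, -1.04 ± 0.57, with the fold change from counts. RBCS3B had -1.38 ± 0.62 and RBCS1B -1.32 ± 0.59. With reads recovered from TPM for Root Total MgD replicate 3, the values were -1.25 for RBCS1A, -1.66 for RBCS1B and -1.58 for RBCS2B. They were -1.79 for RBCS3B and -1.13 for RCA, with 0 members called (edgeR). On unscaled CPM (library-scaled counts), where Root Total MgD replicate 3 rests on other reads, 4 of the 5 lay below without overlap, against 5.04% of all genes tested, and RBCS2B overlapped.

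No member passed the threshold here, with an adjusted p of 1 for each in edgeR, and 4 of the 5 had an unadjusted p under 0.05, RCA the lowest at 0.00324 (edgeR, n = 3 and 3). Over all 20311 genes edgeR called 0% of them, 503 genes or 2.48% had an unadjusted p under 0.05, and DESeq2 and limma on log2(TPM + 1) called 1 each. Without Root Total MgD replicate 3 the falls were larger, -1.56 for RBCS1A, -2.16 for RBCS2B and -1.36 for RCA (adjusted p for RCA = 0.184, edgeR). Without Root Total MgD replicate 1 they were smaller, -0.84 for RBCS1A, -0.60 for RBCS2B and -0.69 for RCA. Without replicate 2 of that group RBCS2B had -0.74. Beside the members, the 39 photosystem and light-harvesting genes had a median log2 fold change of -0.87 in this comparison, the 2 carbonic anhydrases of -1.17, the 22 Calvin cycle genes of -0.32 and all genes of -0.01. The summed photosystem TPM went from 2020 to 2370 in Root Total CK to 1089 to 1342 in Root Total MgD, and the part of leaf RNA in the samples was not tested.

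In root TRAP RNA the members did not move together. RBCS1A had a log2 fold change of -0.24 ± 0.42 and RCA of 0.11 ± 0.26, while RBCS2B had -1.81 ± 0.85, RBCS1B -1.56 ± 0.77 and RBCS3B -0.84 ± 0.63 (SE). RBCS2B went from 2.73, 1.2 and 0.772 TPM to 0.421, 0.379 and 0.546 TPM without overlap, on 6 or 7 counts per MgD library, and it was the only member whose libraries all lay below, against 8.25% of all genes. The edgeR adjusted p of the members was 0.454 or more, 0 of 20311 genes (0%) were called, and 2284 (11.2%) had an unadjusted p under 0.05, with 0 of the members among them. DESeq2 called 57 genes higher and 112 lower and limma on log2(TPM + 1) 0, with 0 members among them. Without Root TRAP CK replicate 1, the values of RBCS1A and RBCS3B turned to 0.32 and 0.25, and those of RBCS1B and RBCS2B moved to -0.63 and -1.09.

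In shoot the MgD values were small. In total RNA they lay between -0.25 ± 0.13 for RBCS3B and -0.10 ± 0.10 for RCA. RBCS1A went from 32382, 30076 and 30037 TPM to 27578, 28646 and 29806 TPM, and RBCS3B from 8044, 8080 and 8025 TPM to 6878, 6747 and 7671 TPM. These 2 members had all MgD libraries below all CK libraries, against 2.08% of all genes tested, on unscaled CPM. In TRAP RNA the values lay between -0.12 ± 0.10 for RCA and 0.10 ± 0.11 for RBCS1A, with every member overlapping, where 4.47% of genes lay below and 5.66% above without overlap. The edgeR test called 0 of 19341 genes (0%) in either RNA type, where 355 genes (1.84%) in total and 1433 (7.41%) in TRAP RNA had an unadjusted p under 0.05. DESeq2 called 0 in total RNA and 7 higher and 8 lower in TRAP RNA, and limma 0 in both. A replicate block by the original library numbers called 1 gene higher in total and 2 in TRAP RNA, and a block by the numbers in the titles called 25 higher and 39 lower in TRAP RNA, with 0 members among them.

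Whether the magnesium response differed between the RNA types was tested as an interaction in each tissue, and 0 members and 0% of all genes were called. In root RCA had 1.04 ± 0.36 (unadjusted p = 0.0134, adjusted p = 0.934, edgeR), and RBCS1A 0.82 ± 0.59 (adjusted p = 0.934, edgeR). In shoot the values ran from -0.02 ± 0.14 for RCA to 0.28 ± 0.15 for RBCS1A (adjusted p = 1, edgeR). Of all genes, 968 (4.77%) in root and 764 (3.95%) in shoot had an unadjusted p under 0.05, and DESeq2 called 1 higher and 1 lower in root and 0 in shoot.

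**Figure D5:**
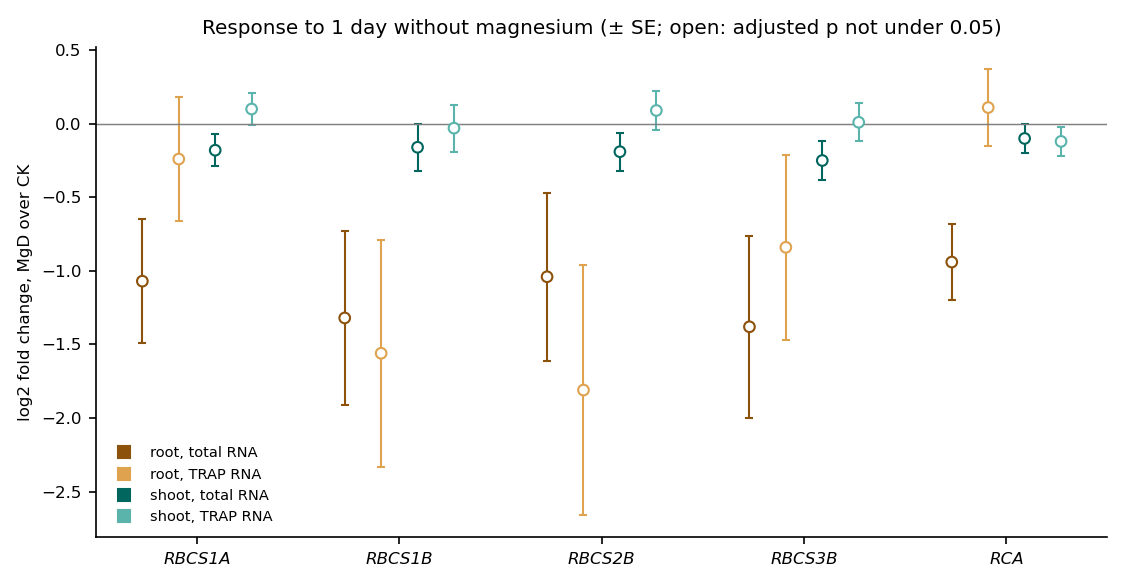
Log2 fold change of MgD over CK for each gene, in root and shoot and in total and TRAP RNA, with bars for the SE (edgeR, 3 against 3 libraries); all points are open because no adjusted p was under 0.05. Root total RNA values lie between -1.38 and -0.94, and shoot values between -0.25 and 0.10.

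The partners of the small subunit were followed as well. The plastid gene rbcL, which encodes the large subunit, was at 99.3, 119 and 101 TPM in Shoot Total CK and 12.8, 12 and 6.34 TPM in Shoot TRAP CK, and it fell by 3.45 ± 0.69 (adjusted p = 0.00353, edgeR). Plastid messages are translated on plastid ribosomes, which do not carry the tag, and an mRNA library keeps few of them. The levels of rbcL were therefore not set beside those of the nuclear genes, but rbcL is included in the gene list of the next paragraph. In root rbcL stood at 1.63, 2 and 3.31 TPM in total and 4.05, 2.28 and 1.55 TPM in TRAP RNA under CK, with overlap (adjusted p = 0.266, edgeR). Under MgD it stood at 2.16, 1.86 and 2.86 TPM in root total and 0.455, 0.164 and 0.101 TPM in root TRAP RNA, a fall of 2.97 ± 0.63 on the log2 scale (adjusted p = 0.0018, edgeR). That fall rests on 10, 4 and 2 counts in the TRAP libraries and 59, 29 and 28 in the total ones, so its size is imprecise.

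Of 19 genes of the large subunit, its assembly and its regulation, 17 were tested in root, and 5 were higher and 0 lower in TRAP RNA under CK, with a median of 0.33 against -0.06 over all genes, of which 22.6% were higher and 25.5% lower. CPN20, a chloroplast co-chaperonin, rose by 0.93 ± 0.16 (adjusted p = 0.00048, edgeR). In shoot 1 was higher and 7 lower of 19, with the plastid gene rbcL among the 7. CHL-CPN10, another co-chaperonin, fell by 1.45 ± 0.12 (adjusted p = 7.84e-08, edgeR). Over all genes in shoot, 21.3% were higher and 23.6% lower. Of 22 Calvin cycle enzymes and their redox regulators, 9 were higher and 3 lower in root TRAP RNA under CK, among them the thioredoxin TRXF1, which rose by 2.14 ± 0.23 (adjusted p = 2.51e-05, edgeR), and 5 were higher and 4 lower in shoot. Their medians were 0.33 in root and 0.01 in shoot, and the shoot counts are near the shares over all genes.

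Of 39 photosystem and light-harvesting genes, 29 were higher and 1 lower in root TRAP RNA under CK, with a median of 1.25, where 22.6% of all genes were higher and 25.5% lower, and 4 were higher and 14 lower in shoot, with a median of -0.13, where 21.3% and 23.6% of all genes were. For the tissue difference of TRAP over total RNA, 29 of these genes were called higher in root and 1 lower, against 16.2% and 12.7% of all genes, and RBCS1A was called higher too. Both carbonic anhydrases were called lower, CA1 at -3.91 ± 0.51 (adjusted p = 1.24e-05) and CA2 at -4.38 ± 0.67 (adjusted p = 8.02e-05, edgeR), as RBCS1B and RBCS2B were. Of the 10 root markers, 9 were tested in root, and under CK 8 were lower and 0 higher in TRAP RNA. Their median was -3.72, where 25.5% of all genes were lower and 22.6% higher. Under MgD the counts were again 8 and 0, with a median of -3.84, where 28% of all genes were lower and 24.5% higher. These lists are described by their counts and medians, and nothing particular to them was tested.

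Across the 12 root libraries, the members fell into 2 patterns by the Pearson correlation of log2(TMM-scaled CPM + 1), given as a description over libraries that share tissue, groups and depth. RBCS1B and RBCS2B had r = 0.987, RBCS1B and RBCS3B 0.905, and RBCS1A and RCA 0.907, whereas RBCS1A and RBCS2B had -0.329. The genes most like RBCS2B in root were CA2 (r = 0.998), AT1G66100 (0.994) and ESM1 (0.994). Those most like RBCS1B were the plastid gene ATCG00430 (0.988), CA1 (0.984) and AT1G66100 (0.984). For RBCS1A they were the photosystem and antenna genes PSAN (0.986), LHCB4.2 (0.983) and PSBO2 (0.968). RBCS3B was most like GAPB (0.969), a Calvin cycle dehydrogenase subunit, AT2G03750 (0.959) and AT4G28080 (0.943), and RCA most like HPR (0.959), a photorespiratory reductase, LHB1B1 (0.941) and PSBQA (0.939).

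Across the 12 shoot libraries the order was another. The RBCS genes had r between 0.917 and 0.971 with each other, and RCA had r between -0.863 and -0.772 with them. The genes most like RBCS1A there were RPS5A (0.997), which encodes a ribosomal protein, AT3G14600 (0.994) and AT2G19730 (0.992), and those most like RCA were AAE5 (0.986), PUB8 (0.971) and RABB1C (0.970). For RBCS1B they were AT5G42070 (0.983), AT4G08280 (0.979) and AT5G18140 (0.977), for RBCS2B AT1G32470 (0.995), AT2G43540 (0.993) and PSBW (0.992), and for RBCS3B AT5G02160 (0.985), AT4G02840 (0.980) and AT1G01100 (0.978). Over all 24 libraries, where the step between tissues dominates, every r of the 3 genes most like each member was 0.994 or higher, with PSAK nearest to RBCS1A (0.998) and HPR nearest to RCA (0.999).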

How the data were processed

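RNA-seq libraries of shoot and root were made with the KAPA mRNA HyperPrep kit from TRIzol-extracted RNA, per the labels' protocols. The tools named are FastQC, Trimmomatic, STAR 2.7.6a and Subread 2.0.0, per the submitters' processing notes. No build and no counting options are given in the sources used here. Read counts per gene were used as deposited, and TPM values were also taken as deposited by the authors. Gene positions and sequences are from TAIR10.1. Counts were tested with edgeR 4.0.16 in R 4.3.3 (quasi-likelihood, filterByExpr, TMM, Benjamini-Hochberg, threshold 0.05), in a model of the 12 libraries of a tissue, or of all 24 for comparisons across tissues. RBCS shares and the RCA to RBCS ratio were compared with two-sided exact permutation tests over 6 against 6 libraries, CK and MgD pooled, since 3 against 3 cannot go below 0.1. Alternatives were RLE scaling, no filter, DESeq2 1.42.0, limma 3.58.1 on log2(TPM + 1) and log2(TPM + 0.1), replicate blocks, 1 model of all 24 libraries, reads recovered from TPM for Root Total MgD replicate 3, and leaving out each library. Shares by coding length were added after seeing the data.

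Simulated data with 100 genes changed 4-fold and 100 changed 2-fold in the same run gave 77% and 36% recovery for the magnesium response in root total RNA over 20311 genes. Every other gene had the same expected level in all groups. These settings differ from the deposited data, where 0 genes were called, so the rates need not hold for the members. Whether numbers pair libraries was checked by the correlation of deviations. With the numbers in the titles the lowest correlation was 0.02 in root and -0.49 in shoot. The root median was 0.38 for the same number and -0.14 for different numbers, and in shoot 0.19 and -0.15, so pairing by these numbers was left unsettled. With the original library numbers the lowest correlation was 0.02 in root, with medians of 0.40 and -0.06. In shoot it was 0.13 and all 13 pairs exceeded 0.1, so these numbers pair the shoot libraries. The edgeR fit blocked by them changed no call of a member in shoot. The exact permutation tests of shares and ratios were not rerun with pairing. The main tests used no pairing. The members, the gene lists and the rule of naming the 3 most alike genes were chosen with earlier results of these data known. A further 8 samples that the labels mark as removed were not analysed here.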

Additional observations from a re-analysis of the deposited data

Results flagged for a closer look

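The ratio of TRAP to total RNA under CK differed between root and shoot for 3 genes, by the test of the difference itself (edgeR quasi-likelihood test, Benjamini-Hochberg adjustment). RBCS1A was higher in root, with a log2 difference of 1.61 ± 0.47 (adjusted p = 0.0131). RBCS2B was lower, at -3.04 ± 0.65 (adjusted p = 0.00157), and RBCS1B was lower, at -2.25 ± 0.63 (adjusted p = 0.0117, edgeR). All shoot TRAP libraries share a lane label that no other library has, so lane label and this difference cannot be told apart.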

How the results depend on the processing

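Counts of called members kept within 1.5 times of the reported ones under every alternative run, except in 6 cases. With all 24 libraries in 1 model, TRAP against total RNA in shoot called 2 members under CK and 2 under MgD. With CK or MgD libraries alone, 0 shares and 0 ratios were called, since an exact permutation test of 3 against 3 libraries cannot go below p = 0.1. With either replicate block, TRAP against total RNA in root under CK called 2 members, as RBCS3B had -1.83 (adjusted p = 0.053, edgeR) with the numbers in the titles and -1.89 (adjusted p = 0.0621) with the original numbers, and the block changed no other call of a member.

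No result that turned sign under an alternative had passed the threshold. With limma on log2(TPM + 1) and log2(TPM + 0.1), RCA in root TRAP against total RNA under CK had -0.35 and -0.36, the root interaction had 0.95 and 0.43 for RBCS1B and 0.84 and 0.22 for RBCS2B, and the MgD response in shoot TRAP RNA had -0.0044 in both for RBCS3B. Reads recovered from TPM gave 0.099 for the root interaction of RBCS1B. With a replicate block the MgD response in shoot TRAP RNA had -0.0036 and -0.08 for RBCS3B and 0.025 for RBCS1B, and the shoot interaction 0.06 for RCA. The ratio of RCA to RBCS in root TRAP against total RNA had 0.011 on CPM, 0.009 by coding length and 0.0055 in MgD libraries alone. Leaving out 1 library, that ratio ran from -0.13 to 0.17, the MgD response in root TRAP RNA from -0.50 to 0.32 for RBCS1A and -1.20 to 0.25 for RBCS3B, and that in shoot TRAP RNA from -0.18 to 0.13 for RBCS1B, -0.035 to 0.24 for RBCS2B and -0.13 to 0.17 for RBCS3B. The interaction ran from -1.05 to 0.71 for RBCS1B and -1.21 to 0.35 for RBCS2B in root, and from -0.038 to 0.31 for RBCS1B and -0.096 to 0.015 for RCA in shoot. The cause was not tested. Depth limits RBCS1B and RBCS2B in root TRAP RNA, where 92 and 62 counts under CK and 34 and 19 under MgD were summed over 3 libraries.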
